A study of Mus musculus with 8 samples.

Results

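The Hox cluster genes were examined in nephron progenitors of the mouse kidney with and without floxed alleles of the histone deacetylase genes Hdac1 and Hdac2. Members were taken by name, as every symbol made of Hoxa, Hoxb, Hoxc or Hoxd and a number, with antisense transcripts left out. This gave 39 genes on 44 probes, and 34 of the 39 had a level that could be tested among 22662 genes. The Hoxa cluster (11 genes) lies on chromosome 6, Hoxb (10) on chromosome 11, Hoxc (9) on chromosome 15 and Hoxd (9) on chromosome 2. Members were chosen by these names, so the chromosomes are no separate check of the choice.

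Cells positive for EGFP were sorted from C57BL/6 kidneys at embryonic day 15.5, and their RNA was hybridised to 8 two-colour Agilent arrays. The 4 mutant pools were Six2CreEGFP+; HDAC1&2f/f and the 4 wildtype pools Six2CreEGFP+; HDAC1&2+/+, so both groups carried the Six2-driven transgene, which expresses Cre and EGFP in the cap mesenchyme, and only the mutants carried alleles that Cre could delete. Each pool was labelled with Cy5 and set against one common Cy3 reference, the RNA of wildtype pool 1, so the array of that pool compared the RNA with itself. The labels do not say whether pools share animals, and p-values then measure only the spread between these samples.

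Hox genes encode homeodomain transcription factors that give cells their position along the body axis. Within a cluster they lie in the order in which they are expressed along that axis, from the low-numbered, anterior genes to the high-numbered, posterior ones, and genes with the same number in different clusters are paralogues. In the metanephric mesenchyme the Hox11 paralogues act with Eya1 and Pax2 upstream of Six2 and Gdnf, the Hox10 paralogues are required in the renal stroma, and a Hoxb7 promoter fragment is widely used to mark the ureteric bud.

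The arrays differed in ways that touch the Hox values. Probes well above background in Cy5 numbered 28150 to 33982 of 55681 on 7 arrays and 48627 on the wildtype 2 array. Over 3916 genes with several probes, log2 ratios of a gene's probes had a median SD of 0.245 on the mutant 1 array and 0.0826 to 0.142 on the others. All arrays lay on 1 slide from 1 scan with one row for each group, and an effect of the row cannot be told apart from the genotype. The labels give the 4 pools of a group as separate biological replicates. The arrays of pools 3 and 4 within a group nevertheless differed by less than the most distant repeats of the reference RNA and were counted as 1 sample, which leaves 3 samples per group. Six2 probes were well above background on all 8 arrays, but so were probes of the stromal and ureteric bud markers given below. This flag therefore does not show how pure the sorted cells were. Hdac1 differed by -0.30 ± 0.09 (SE, n = 3 per group; limma adjusted p = 0.476) and Hdac2 by -0.13 ± 0.14 (limma adjusted p = 0.84), and the place of their probes against the deleted exons was not analysed here.

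Most of the Hox complement was detected in the sorted cells. A gene was called detected where the scanner software flagged the Cy5 signal of a probe as well above background on 3 or 4 arrays of a group. This held for 34 of 39 Hox genes (87.2%), against 71.8% of the 20887 symbols on the array, and the 34 were flagged on all 8 arrays. Detected were 10 of 11 Hoxa, 8 of 10 Hoxb, 7 of 9 Hoxc and all 9 Hoxd genes. The 5 others were Hoxb1, the anterior gene known for its role in the hindbrain, and the posterior genes Hoxa13, Hoxb13, Hoxc12 and Hoxc13.

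Hoxb1 and Hoxb13 were flagged on no array, and their Cy5 levels on the log2 scale were 6.08 to 6.49 and 5.71 to 6.40. Hoxc13 was flagged on the wildtype 2 array only. Both Hoxa13 probes were flagged on the wildtype 2 and wildtype 4 arrays, and Hoxc12 on these and on the mutant 4 array. The wildtype 2 and wildtype 4 arrays, with the most flagged probes of the 8, thus held 5 of the 6 gene flags.

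The wildtype 2 array raised some Hox probes in both dyes. On it the Hoxc12 probe lay 4.04 above the median of the other 7 arrays in Cy5 and 3.40 above it in Cy3, on the log2 scale, although Cy3 held the same RNA on every array. The Hoxa13 probes lay 3.79 and 2.79 higher in Cy5 and 3.36 and 2.58 higher in Cy3. Among detected genes, Hoxa6 was raised by 2.76 in Cy5 and 2.39 in Cy3. Hoxd1, Hoxc5 and Hoxc10 were raised by 1.58 to 1.78 in Cy3. Of the 37 Hox probes kept for the test, 4 (10.8%) were raised by over 1 in Cy3, against 13.6% of the 29873 kept probes with a Cy3 value, and of the 7 Hox probes not kept, 3 were. Ratios of Cy5 over Cy3 within the array, used from here on, take out what both dyes share.

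**Figure D1:**
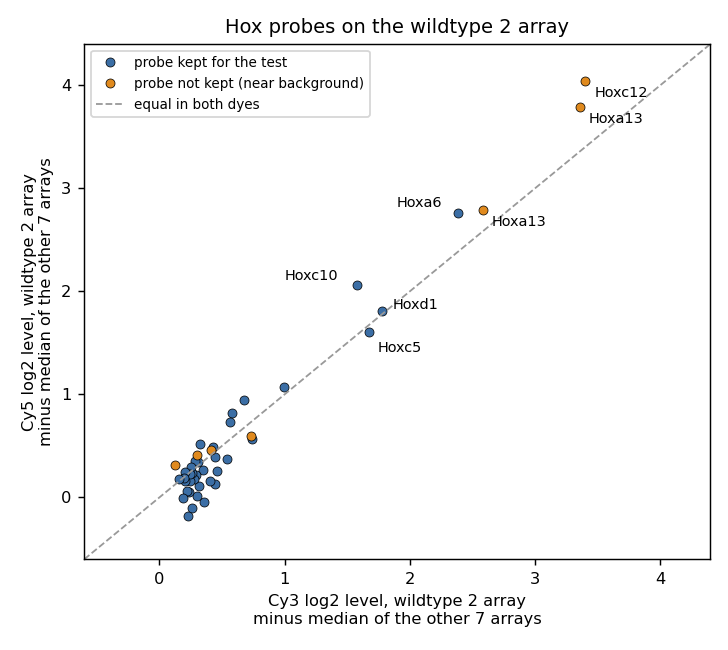
Cy5 level (vertical axis) against Cy3 level (horizontal axis) of the 44 Hox probes on the wildtype 2 array, each as a log2 difference from the median of the other 7 arrays. Points are probes, coloured by whether they were kept for the test, and the dashed line marks an equal rise in both dyes. Hoxc12 and Hoxa13 lie highest in both, and most probes lie near the line below 1.

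No Hox gene passed the test between mutant and wildtype. With limma and Benjamini-Hochberg adjustment over all genes, 0 of 34 Hox genes and 10 of 22662 genes (0.0441%) had an adjusted p under 0.05, the latter 5 in each direction (0.0221% each). With pool number as a replicate block the count was 0 of 34, against 0.15% of all genes. At an unadjusted p under 0.05, 5 Hox genes had a higher mutant mean (14.7%, against 4.46% of all genes) and 2 a lower one (5.88%, against 2.78%). With the block these counts were 7 (20.6%, against 7.77%) and 2 (5.88%, against 4.88%). With the 8 arrays taken as separate samples, which counts pools 3 and 4 of each group as independent, 3 Hox genes passed (Hoxc6, Hoxc4 and Hoxb2), and with the block added also Hoxd12. The share of all genes that passed in these 8-array fits is not given here, and the Hox counts are not set against it.

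The list as a whole was centred near the array. The mutant mean was higher for 19 Hox genes and lower for 15, and their median log2 difference was 0.02, against 0.0017 over all genes. Across the ways of scaling the arrays, 13 Hox genes stayed higher, 9 stayed lower and 12 changed direction. The median size of the difference, whichever its sign, was 0.184 for Hox genes and 0.117 for all genes. The median SD between samples was 0.112 in wildtype and 0.212 in mutant for Hox genes, and 0.116 and 0.171 for all genes. A difference of at least 0.5 was seen in 3 Hox genes (8.82%, against 3.28%). Paired by pool, 12 Hox genes were higher in mutant in all 3 pairs (35.3%, against 23%) and 6 were lower in all 3 (17.6%, against 17.4%).

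Groups lying apart with mutant higher were more frequent among Hox genes than on the array, a comparison of shares with no test. In 7 Hox genes every mutant sample lay above every wildtype sample (20.6%, against 8.72% of all genes), namely Hoxb4, Hoxc4, Hoxc5, Hoxc6, Hoxc8, Hoxd4 and Hoxd12. In 3 every mutant sample lay below (8.82%, against 5.95%), namely Hoxb2, Hoxb6 and Hoxd10. An exact two-sided permutation test of 3 against 3 samples gives 0.1 for each of the 10, the smallest p it allows.

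**Figure D2:**
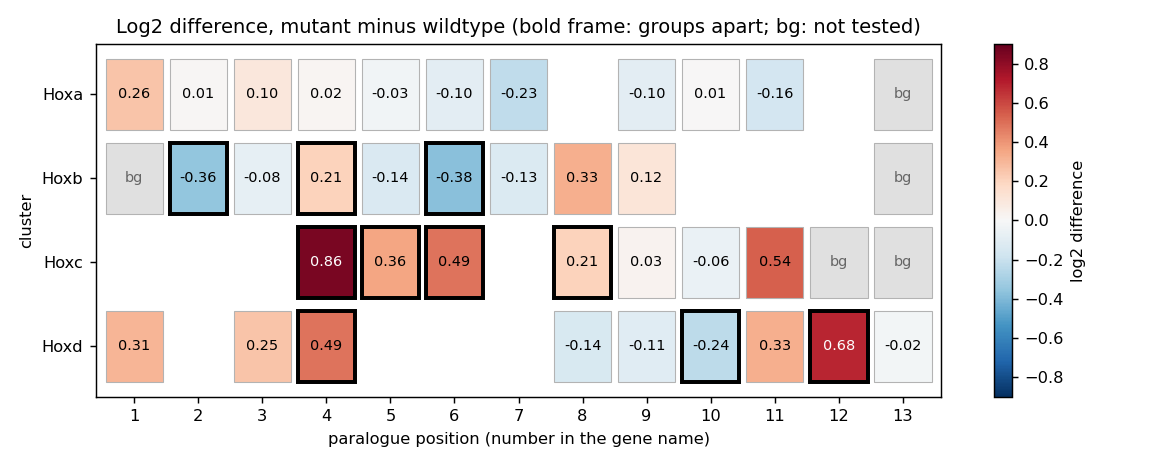
Log2 difference, mutant minus wildtype, of each Hox gene, by cluster (rows) and paralogue position (columns), with colour from blue (lower in mutant) to red (higher). Bold frames mark the 10 genes whose groups did not overlap, and bg marks the 5 genes near background, which were not tested. Among Hoxc genes 6 of 7 differences are above 0, and all 4 at position 4 are.

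The clusters differed in where their values lay. The median difference was 0.36 over 7 Hoxc genes (-0.06 to 0.86) and 0.25 over 9 Hoxd genes (-0.24 to 0.68). Paired by pool (1, 2, and 3 with 4), the medians were 0.57, 0.42 and 0.23 for Hoxc. For Hoxd they were 0.21, -0.0033 and 0.20, and 5 Hoxd genes had a higher and 4 a lower mutant mean. The median difference over samples was -0.01 for 10 Hoxa genes (-0.23 to 0.26) and -0.11 for 8 Hoxb genes (-0.38 to 0.33). Hoxc held 4 of the 7 genes with mutant samples above wildtype, and no Hoxa gene had groups that did not overlap. By position, the median was 0.21 over 11 genes at positions 1 to 4, of which 9 had a higher mutant mean, -0.10 over 11 genes at positions 5 to 8 and -0.01 over 12 genes at positions 9 to 13. These medians describe the lists and were not tested. Between scalings of the arrays, Hoxa2, Hoxa3, Hoxa4 and Hoxb3 at positions 1 to 4 changed direction, as did Hoxc9 and Hoxc10.

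Hoxc4 had the largest difference of the 34. Its log2 ratios over the reference were 0.17, 0.45 and 0.14 in wildtype pools 1, 2 and 3 with 4, and 1.32, 1.18 and 0.82 in the mutant pools. All mutant samples lay above all wildtype samples, with a gap near the size of the wildtype range. The difference was 0.86 ± 0.16 (SE, n = 3 per group), a 1.81-fold higher mean, with a limma adjusted p of 0.223 and 0.0883 with the replicate block. The probe's own Cy5 levels were 10.82 to 11.58 on the wildtype arrays and 11.62 to 11.90 on the mutant arrays.

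At position 4 the paralogues had higher mutant means in every cluster. Hoxd4 had ratios of 0.29, 0.33 and 0.44 in wildtype and 1.12, 0.49 and 0.91 in mutant, with mutant pool 2 close to the highest wildtype sample. It differed by 0.49 ± 0.17 (SE, n = 3 per group; limma adjusted p = 0.566). Hoxb4, named after its values were seen, differed by 0.21 ± 0.11 (limma adjusted p = 0.773), and its highest wildtype and lowest mutant ratios were nearly equal at 0.19. Hoxa4 differed by 0.02 with a 95% interval of -0.27 to 0.31, and its sign turned when arrays were centred on spike-ins. The spans of Hoxd3 and Hoxd4, of Hoxb3 and Hoxb4 and of Hoxa3 with Hoxa4, Hoxa5 and Hoxa6 overlap in the gene table, and whether a probe can read both was not analysed here.

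The next Hoxc genes along the cluster, Hoxc5 and Hoxc6, lay the same way. Hoxc6 had ratios of -0.18, -0.14 and -0.01 in wildtype and 0.39, 0.37 and 0.38 in mutant, with little spread among the mutant samples. It differed by 0.49 ± 0.09 (SE, n = 3 per group), a 1.40-fold higher mean (limma adjusted p = 0.231, and 0.142 with the block). Hoxc5 had ratios of -0.25, 0.20 and -0.01 in wildtype and 0.37, 0.36 and 0.29 in mutant, and differed by 0.36 ± 0.13 (limma adjusted p = 0.614). Its highest wildtype sample was pool 2, on the array that raised this probe in both dyes, and without that sample the difference was 0.46. Hoxc8, named after its values were seen, differed by 0.21 ± 0.11 (limma adjusted p = 0.78). The Hoxc8 probe was dim, with Cy5 levels of 6.71 to 7.35, and its difference ran from 0.07 to 0.47 across scalings. Hoxc9 differed by 0.03 with overlapping groups.

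Hoxd12, a posterior gene best known from the limb, had ratios of 0.02, 0.38 and -0.18 in wildtype and 0.75, 0.95 and 0.57 in mutant. All mutant samples lay above the wildtype ones, and pool 2 was highest in both groups. The difference was 0.68 ± 0.17 (SE, n = 3 per group), a 1.61-fold higher mean, with a limma adjusted p of 0.357 and 0.0744 with the block. Its neighbour Hoxd13 differed by -0.02, with overlapping groups.

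The genes with lower mutant samples lay in the Hoxb and Hoxd clusters. Hoxb2, a hindbrain gene in its best-known role, had ratios of -0.23, -0.23 and -0.28 in wildtype and -0.63, -0.63 and -0.56 in mutant. The samples of each group lay close together and far from the other group. It differed by -0.36 ± 0.09 (SE, n = 3 per group), a 1.28-fold lower mean (limma adjusted p = 0.339, and 0.218 with the block). Hoxb6 had ratios of 0.01, -0.13 and 0.13 in wildtype and -0.63, -0.36 and -0.13 in mutant, where the nearest samples of the groups almost met. It differed by -0.38 ± 0.15 (limma adjusted p = 0.65).

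**Figure D3:**
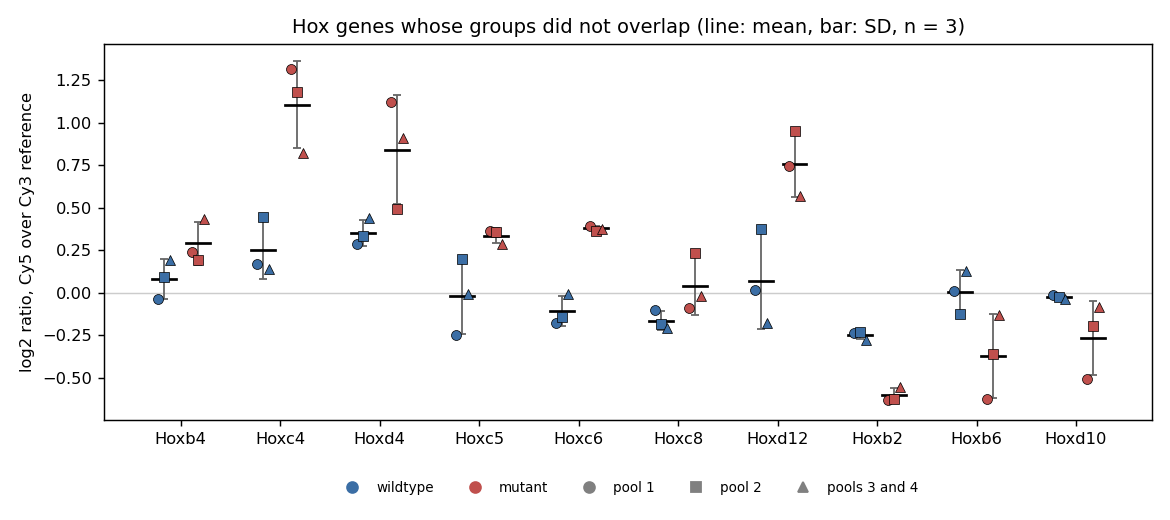
Log2 ratio of Cy5 over the Cy3 reference (vertical axis) in each sample, for the 10 Hox genes whose groups did not overlap. Points are samples (blue wildtype, red mutant, shape for the pool), lines the group means and bars the SD (n = 3). Hoxc4, Hoxc6 and Hoxb2 show the widest gaps between groups for their spread.

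Promoters are shown for Hoxc4, Hoxd4 and Hoxd12, the 3 genes with the largest differences among those with higher mutant samples and an entry in the RefSeq promoter table (GRCm38.p6), as 250 bases up to the transcription start, 5′ to 3′. Capitals mark matches on either strand to any of 5 motifs, which are the TATA box with letters TATAAA, the box named CCAAT, the Pbx-Hox site with letters TGATTNAT, the posterior Hox site with letters TTTATNG and the core site of retinoic acid receptors with letters AGGTCA.
Hoxc4, chr15:103034145-103034394, plus strand: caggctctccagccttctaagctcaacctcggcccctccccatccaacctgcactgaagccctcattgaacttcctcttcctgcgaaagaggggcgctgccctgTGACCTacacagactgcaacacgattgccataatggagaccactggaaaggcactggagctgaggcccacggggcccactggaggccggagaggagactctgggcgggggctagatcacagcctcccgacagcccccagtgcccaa
Hoxd4, chr2:74721728-74721977, plus strand: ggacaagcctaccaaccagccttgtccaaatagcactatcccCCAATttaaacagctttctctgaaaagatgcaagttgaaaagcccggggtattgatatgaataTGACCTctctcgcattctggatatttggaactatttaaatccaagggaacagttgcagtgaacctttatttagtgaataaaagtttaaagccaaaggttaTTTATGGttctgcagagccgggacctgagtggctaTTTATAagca
Hoxd12, chr2:74674763-74675012, plus strand: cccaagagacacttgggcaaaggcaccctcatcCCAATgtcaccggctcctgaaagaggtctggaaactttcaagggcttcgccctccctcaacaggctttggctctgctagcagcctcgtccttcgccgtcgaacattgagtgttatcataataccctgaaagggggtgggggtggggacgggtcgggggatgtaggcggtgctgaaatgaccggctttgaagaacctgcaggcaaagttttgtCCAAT
The Hoxc4 and Hoxd4 windows each hold AGGTCA, read on the other strand as TGACCT. The Hoxd12 window holds CCAAT near its 5′ end and again at its 3′ end. The table had entries for 22 of the 39 symbols, of which 6 hold AGGTCA, against 14% of 32851 promoters, and 14 hold CCAAT, against 33.8%. The TATA box was found in 4 of the 22, against 12.4%, the Pbx-Hox site in 2, against 2.82%, and the posterior Hox site in 2, against 9.81%. The median GC content was 58.6% over the 24 Hox windows and 52.4% over all. A match is a description of these letters and no evidence of binding.

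Paralogue groups 10 and 11, the kidney-level groups, had smaller or less even differences. Hoxa11 had ratios of 0.03, -0.18 and -0.26 in wildtype and -0.28, -0.21 and -0.41 in mutant, so that the groups overlapped. It differed by -0.16 ± 0.11 (SE, n = 3 per group; limma adjusted p = 0.817), with a 95% interval of -0.43 to 0.11. Its antisense neighbour Hoxa11os differed by -0.17 ± 0.12 (limma adjusted p = 0.818).

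The Hoxc11 and Hoxd11 differences depended on the mutant 1 array, in size for Hoxc11 and in sign for Hoxd11. Hoxc11 had ratios of 0.00, -0.28 and -0.32 in wildtype and 0.88, 0.24 and -0.10 in mutant, and differed by 0.54 ± 0.24 (SE, n = 3 per group; limma adjusted p = 0.731, and 0.251 with the block). Without mutant pool 1 the difference was 0.27, and Hoxc11 was higher in mutant in all 3 pairs of pools. The brighter Hoxd11 probe read -0.09, -0.06 and -0.23 in wildtype and 0.86, -0.12 and -0.13 in mutant, a difference of 0.33 ± 0.26 (limma adjusted p = 0.819). The other Hoxd11 probe gave -0.22, with -0.71 in mutant pool 1 where the brighter one gave 0.86, and without that pool the brighter probe gave -0.0031. The probes of Hoxa9 (-0.10 and 0.02) and Hoxb3 (-0.08 and 0.11) also disagreed in sign.

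In group 10, Hoxa10 had ratios of -0.12, -0.55 and -0.40 in wildtype and 0.20, -0.74 and -0.51 in mutant. The groups overlapped fully, the difference was 0.01 ± 0.25 (SE, n = 3 per group; limma adjusted p = 0.997) and the 95% interval ran from -0.58 to 0.59. Hoxc10 had ratios of -0.05, 0.45 and -0.11 in wildtype and 0.11, 0.16 and -0.15 in mutant, and differed by -0.06 ± 0.17 (limma adjusted p = 0.947). Both signs turned under other settings, Hoxc10 to 0.12 without wildtype pool 2. Hoxd10 had ratios of -0.02, -0.03 and -0.04 in wildtype and -0.51, -0.20 and -0.09 in mutant. Its mutant samples all lay lower, by -0.24 ± 0.13 on average (limma adjusted p = 0.765).

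**Figure D4:**
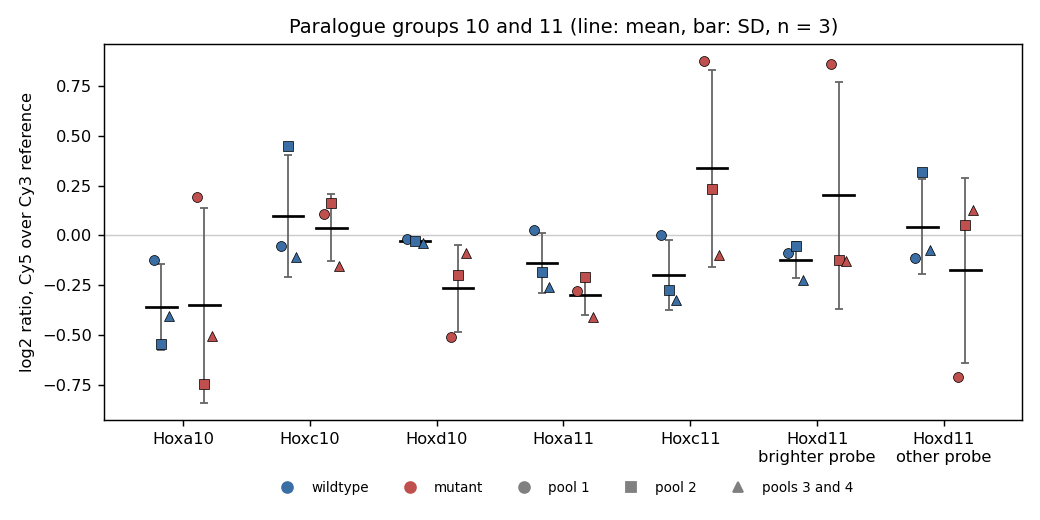
Log2 ratio of Cy5 over the Cy3 reference (vertical axis) in each sample for the detected genes of paralogue groups 10 and 11, with both Hoxd11 probes. Points are samples (blue wildtype, red mutant, shape for the pool), lines the group means and bars the SD (n = 3). The 2 Hoxd11 probes lie on opposite sides of 0 in mutant pool 1.

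Hoxb7 had ratios of 0.12, -0.02 and 0.08 in wildtype and -0.06, -0.17 and 0.02 in mutant. The groups overlapped, and it differed by -0.13 ± 0.10 (SE, n = 3 per group; limma adjusted p = 0.819). The posterior Hoxb genes spread most, since mutant pool 1 gave 0.83 for Hoxb8 and 0.80 for Hoxb9 while the other mutant samples were between -0.78 and -0.09.

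Hox genes followed the pools about as often as other genes did. Pool 1 was the highest of the 3 samples in both wildtype and mutant for 7 of 34 Hox genes (20.6%, against 23.2% of all genes). Pool 2 was highest in both for 6 (17.6%, against 14%), and pools 3 and 4 for 5 (14.7%, against 15.7%). The pool number is also the column of the slide, so pool and column cannot be told apart.

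Genes that act with or on the Hox genes gave no call in either limma fit over 3 samples per group. Of 9 Hox cofactors of the Pbx, Meis and Pknox families, 8 had a higher mutant mean, with a median of 0.05. Meis3, with the lowest p, had ratios of -0.01, 0.21 and -0.26 in wildtype and 0.67, 0.41 and 0.28 in mutant, and differed by 0.47 ± 0.16 (SE, n = 3 per group; limma adjusted p = 0.558). Of 25 upstream regulators, 22 were measured, with a median of -0.06, and Cdx1, a caudal-type activator of Hox genes, had the lowest p at -0.23 ± 0.11 (limma adjusted p = 0.754).

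Among 6 kidney partners and targets of Hox11, 4 had a lower mutant mean, with a median of -0.15. Itga8, an integrin subunit of the mesenchyme, had the lowest p, at -0.34 ± 0.13 (SE, n = 3 per group; limma adjusted p = 0.632). Six2 itself differed by -0.13 ± 0.14 (limma adjusted p = 0.839).

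Of 24 genes flanking the clusters, 20 were measured and 16 had a lower mutant mean. The adaptor gene Skap1, beside the Hoxb cluster, went the other way, with ratios of -0.05, -0.13 and -0.26 in wildtype and 1.44, 0.58 and 1.02 in mutant. Its groups were far apart, and it differed by 1.16 ± 0.21 (SE, n = 3 per group), a 2.23-fold higher mean (limma adjusted p = 0.212, and 0.0884 with the block). Of 32 non-coding genes within the clusters, 3 were measured, at -0.20 to -0.17.

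Some marker lists of the progenitors and of other cells also differed between the groups, while in others the sample means overlapped. The mean log2 ratio of 10 stromal markers was -0.09 to 0.15 in the wildtype and 0.04 to 0.44 in the mutant samples, with a higher mutant mean for 8 of 10. That of 10 ureteric bud markers was -0.26 to 0.02 and -0.13 to 0.22, with 6 of 10 higher, and in both lists the groups overlapped. That of 10 nephron progenitor markers was 0.04 to 0.11 and -0.49 to -0.24, with 8 of 10 lower, and Cited1 fell by 2.72 (limma adjusted p = 0.00279). Without Cited1, a choice made after its value was seen, the other 9 averaged 0.04 to 0.15 and -0.22 to 0.04, and the groups overlapped. All the markers of these 3 lists had a probe well above background on all 8 arrays. Lists of later nephron stages lay lower in mutant. The mean of 6 renal vesicle markers was -0.19 to 0.06 in wildtype and -0.58 to -0.36 in mutant, with 5 of 6 lower. All 5 podocyte markers and all 5 proximal tubule markers had lower mutant means, with median differences of -0.61 and -1.46, but the sample means overlapped, at -0.91 to 0.74 against -1.22 to -0.45 and at -1.66 to 0.91 against -2.74 to -0.64. Sample means also overlapped for the lists of endothelium, leukocytes, erythroid cells, neural crest and neurons, and adrenal cortex and gonad neighbours. The part of these cells in the Hox values was not tested, and in sorted pools fewer cells of a type and less RNA per cell cannot be told apart.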

How the data were processed

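RNA of 4 wildtype and 4 mutant pools was measured on 8 two-colour arrays. The deposited scanner files hold spot intensity in each dye, from Agilent Feature Extraction 10.7.3.1, as the submitters' processing notes name it. A deposited table of values holds log10 ratios of Cy5 over Cy3, dye-normalized by the scanner software, and served as an alternative.

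Median spot intensities were background-corrected (normexp, offset 50) and loess-normalized within each array with limma 3.58.1 in R 4.3.3. Probes whose Cy5 signal was flagged well above background on 3 or 4 arrays of a group were kept (30364 of 55681), and the brightest probe stood for each gene (22662 genes, 334 of them without a value in at least 1 sample). Symbols came from probe accessions matched to a RefSeq gene table (GRCm38.p6), used for names and neighbours only: 27509 probes matched, and 14989 tested genes had a symbol.

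Pools 3 and 4 were averaged because their Cy5 levels differed by 0.0565 (wildtype) and 0.0604 (mutant), within the range of 0.0455 to 0.0784 in Cy3, which held 1 RNA, between arrays other than wildtype 2 (median absolute deviation, log2, 5807 probes). On these same pairs of arrays Cy3 differed by less, 0.0475 and 0.0476, so the pools may not be identical; other Cy5 pairs without wildtype 2 differed by 0.110 to 0.354. With 4 against 4 samples, 3 Hox genes pass. Samples of the same pool number deviated together (r = 0.495, 0.543 and 0.527 across 22328 genes), so the numbers were taken to pair them, from the data and not from a label. limma (lmFit, eBayes, two-sided) compared 3 with 3 samples, with Benjamini-Hochberg adjustment and a threshold of 0.05. On simulated data of this size, 70% of genes changed by 1 and 92% of those changed by 2 on the log2 scale were recovered. The largest Hox difference, 0.86, lies below these sizes, so these rates do not cover the Hox values. The number of arrays limits the precision.

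Genes with values in every sample were the 8 members with the lowest p, groups 10 and 11 and Hoxb7, with the lowest p of each other list. The members and lists were chosen with earlier results of these data known. Alternatives covered background, normalization, filters, probe choice, samples left out and the replicate block.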

Additional observations from a re-analysis of the deposited data

Results flagged for a closer look

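On the mutant 4 array 38 of 44 Hox probes were well above background, against 37 on each other mutant array, a gap of 1 probe that makes up the group's whole range. The mutant 1 array stood apart among the mutant arrays in 2 measures: 28150 probes in all were well above background in Cy5, and log2 ratios of a gene's probes had a median SD of 0.245. About 1 group in 20 would be set apart in this way by chance.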

How the results depend on the processing

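Of 21 alternatives, 19 left the count of Hox genes called at 0, the fit with the replicate block over 3 samples per group among them, which changed no call of a Hox gene. The exceptions treated the 8 arrays as separate samples: 3 Hox genes passed, at limma adjusted p of 0.0265 (Hoxc6), 0.029 (Hoxc4) and 0.0454 (Hoxb2), and 4 with the replicate block added, at 0.00725 (Hoxd12), 0.0148 (Hoxc4), 0.031 (Hoxc6) and 0.0474 (Hoxb2). Their log2 differences were then 0.81 for Hoxc4, 0.46 for Hoxc6, -0.34 for Hoxb2 and, with the block, 0.70 for Hoxd12. Partner, regulator and flanking genes gave 1 call in each. The share of all genes called in these settings is not given here, so none of these counts is set against it. The labels give the 4 pools of a group as separate replicates, as these settings take them. The Hox median of 0.02 became 0.10 with median centring, -0.13 with spike-in centring and 0.14 with Cy5 levels alone, while the median over all genes became 0.07, -0.14 and 0.11. Hoxc10 turned to 0.014 with processed signals, 0.015 with the deposited table and 0.033 with median centring. Hoxa10 turned to -0.14 with spike-in centring, to -0.021 with 8 arrays, with or without the block, and to -0.0050 with Cy5 levels alone. The cause was not tested. Leaving out 1 sample gave -0.16 to 0.12 for Hoxc10, -0.27 to 0.20 for Hoxa10 and -0.0031 to 0.49 for Hoxd11. Within these ranges Hoxa10 was -0.017 without wildtype pools 3 and 4, and Hoxc10 was 0.038 without mutant pools 3 and 4. In an alternative chosen after seeing the data, leaving out 1 sample gave 7 to 10 Hox genes with mutant samples above and 3 to 6 below, with 6 below without mutant pool 1 and 5 without mutant pool 2 or pools 3 and 4. Over all genes the share above was then 11.3% to 16.7% and the share below 8.72% to 12.6%, since fewer samples overlap less often. Among Hox genes these shares were 20.6% to 29.4% and 8.82% to 17.6%.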
